A study of Homo sapiens with 6 samples.

Results

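The pericentromeric bins are the 40-kb bins of chromosomes 1 to 22 that lie within 3 Mb of the centromeric gap on either side. They were chosen by the measured maps themselves. On each chromosome the longest run of bins without any pair in all of the 4 line maps was found (on the acrocentric chromosomes 13, 14, 15, 21 and 22, the run at the start), and the bins with at least 1 pair within 3 Mb of its edges were taken. This gave 2526 bins of the 66344 listed autosomal bins, in 39 windows, of which 17 lie on short arms and 22 on long arms. Whether a bin has a pair was used for this choice, so the counts of listed bins are a description. The contacts and coverage described below were measured on the bins so chosen.

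The study mapped chromatin contacts by in situ Hi-C, which joins and sequences DNA ends that lie close together in the nucleus, in 4 human cancer cell lines. SW480 and SNU-C1 are lines from colon cancers, HCC1954 from a breast cancer and OE33 from an oesophageal adenocarcinoma, and the labels name no treatment of any of them. SNU-C1, HCC1954 and OE33 have 1 map each, and SW480 has a map of replicate 1, a map of replicate 2 and a map without a number, whose 162613468 read pairs are close to the sum of the replicates' 80465001 and 82140171 and which was taken as their pool. Each line is 1 tumour's descendant, so the lines differ by tissue, by donor and by their rearrangements at once, and no test between lines was made.

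A human centromere is built on alpha satellite, a short repeat unit arranged head to tail in long arrays. Some units carry the CENP-B box, the motif that the protein CENP-B binds, and part of each array carries the histone variant CENP-A, on which the kinetochore forms. Around the arrays lies heterochromatin rich in repeats and segmental duplications, which short reads place poorly and which the genome build leaves largely as unknown bases. The long arrays of chromosomes 1, 5 and 19 are known to belong to a shared family of alpha satellite.

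The build holds the outer ends of some arrays, and these reference sequences (hg19, read from GRCh37, whose chromosome lengths equal those of the bin list) show what the innermost bins contain. Each is the CENP-B box match nearest to the run that has only known bases around it, with the box in capitals. The box was searched on both strands as TTCG, any 4 bases, A, any 2 bases and CGGG. The first 3 are from windows among those with the most matches. The last 3 are from the windows of chromosomes 1, 19 and 5, whose contacts with each other are described further on, and they were added after the values were seen.
2p, chr2:92325715-92325849, plus strand: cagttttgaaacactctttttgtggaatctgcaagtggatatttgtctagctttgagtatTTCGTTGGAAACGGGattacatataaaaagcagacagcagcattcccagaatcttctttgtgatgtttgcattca
11p, chr11:51592240-51592374, minus strand: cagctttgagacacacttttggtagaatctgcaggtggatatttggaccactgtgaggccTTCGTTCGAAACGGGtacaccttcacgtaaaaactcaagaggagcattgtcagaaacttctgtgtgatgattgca
7q, chr7:61079815-61079949, plus strand: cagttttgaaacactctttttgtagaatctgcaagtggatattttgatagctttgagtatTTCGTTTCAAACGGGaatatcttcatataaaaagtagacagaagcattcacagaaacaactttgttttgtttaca
1p, chr1:121484988-121485122, plus strand: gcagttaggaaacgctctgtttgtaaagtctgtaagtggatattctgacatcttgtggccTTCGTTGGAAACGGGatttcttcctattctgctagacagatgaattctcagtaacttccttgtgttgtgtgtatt
19q, chr19:27731970-27732104, plus strand: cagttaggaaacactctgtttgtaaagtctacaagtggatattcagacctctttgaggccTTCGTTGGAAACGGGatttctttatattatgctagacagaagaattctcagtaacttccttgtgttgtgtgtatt
5p, chr5:46398933-46399067, plus strand: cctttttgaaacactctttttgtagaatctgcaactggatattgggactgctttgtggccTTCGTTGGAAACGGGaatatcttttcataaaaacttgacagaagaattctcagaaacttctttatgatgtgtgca

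The 6 stretches of 135 bases were aligned in pairs over their whole length. The 1p and 19q stretches had 91.2% of 136 aligned columns in common, more than any of the other 14 pairings, which shared 66.2% to 83.5%. The motif had 702 matches in the pericentromeric bins, and 78 of the bins (3.09%) held at least 1, as did 722 of the 63818 other listed bins (1.13%). Of the 702 matches, 633 lay within 1 Mb of a run. Among the 534 neighbouring matches on one strand that lay at most 2000 bases apart, the commonest spacing was 338 bases (60 times) and 41.4% lay within 5 bases of it. The 2p window held 102 matches, 11p 64 and 7q 56. A match is a description of the reference and not a site of binding in these cells.

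The base composition of the pericentromeric bins was close to that of the rest of the autosomes, with 40.9% GC against 41.0% and 2.42 MboI sites (GATC) per kb against 2.50. The windows adjoin runs chosen for having no pair, so the following counts of positions without a pair describe that choice and are no separate sign of low coverage. Of the 2925 bin positions in the windows, 399 (13.6%) had no pair in any line, against 822 of 64640 positions elsewhere (1.27%). SW480 listed 2525 of the 2526 bins, OE33 2025, SNU-C1 1957 and HCC1954 1866, and 432 bins were listed in SW480 only. Of the other autosomal bins SW480 listed 99.7%, SNU-C1 97.8%, HCC1954 97.5% and OE33 97.5%. Only the SW480 maps hold pairs within a bin, and without these SW480 still listed 2525 of the pericentromeric bins and 432 alone. The median coverage of the 2526 bins was 0.756 in SW480, 0.734 in OE33, 0.660 in SNU-C1 and 0.604 in HCC1954. It is given in read pairs within chromosomes over the median of all autosomal bins of the line. The 432 bins listed in SW480 only are counted here and have no pairs in the other lines. The medians therefore describe the choice of bins in part and are no comparison of the lines.

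Coverage fell toward the run in each line, and the choice of a run without pairs favours such a fall. In the innermost 0.5 Mb the median relative coverage was 0.298 in SW480 and 0 in the 3 other lines, where under 46% of the bins were listed. A bin could enter through SW480 alone and then counts as 0 in the other lines. These medians therefore describe the choice of bins in part and are no comparison of the lines. At 2.5 to 3 Mb SW480 had 0.912, SNU-C1 0.840, HCC1954 0.829 and OE33 0.911. A bin was called usable when it reached 0.25 of the median coverage in all 4 lines, and this left 1716 of the 2526 bins (67.9%), against 94.8% of the other listed bins. Within 1 Mb of the run 44.6% were usable. A window needed 10 usable bins to be measured, which 33 of the 39 windows had. The windows 2p, 9p, 9q, 11p, 16p and 21q had fewer, so chromosomes 2, 9, 11 and 16 have no value across the centromere. The run at the start of chromosome 21 ends at 9.8 Mb, and its window holds 20 listed bins and no usable one.

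The first comparison asked whether the short-arm and the long-arm window of a chromosome touched as often as regions of one arm that lie equally far apart. The measure is the observed over expected contact (O/E), the summed corrected contact over the mean of all usable pairs within arms at the same distances in the same map. It could be taken on 13 chromosomes. The median O/E was 0.824 in SW480 (0.818 in replicate 1 and 0.825 in replicate 2), while SNU-C1 had 0.962, HCC1954 0.799 and OE33 1.04. Pairs of windows inside arms with the same gaps had medians of 0.973, 0.974, 0.956 and 0.926 in the same order. Their 5th to 95th percentiles were 0.491 to 1.52 in SNU-C1, 0.540 to 1.62 in HCC1954 and 0.358 to 1.81 in OE33. In SW480 the 95th percentile was 1.59, and 4.96% of the pairs were at 0.5 or less. Distances are those of the build, in which 12 of the 13 runs span 2.96 to 3.36 Mb whatever the true length of the array, so the matched distance holds for the build only.

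**Figure D1:**
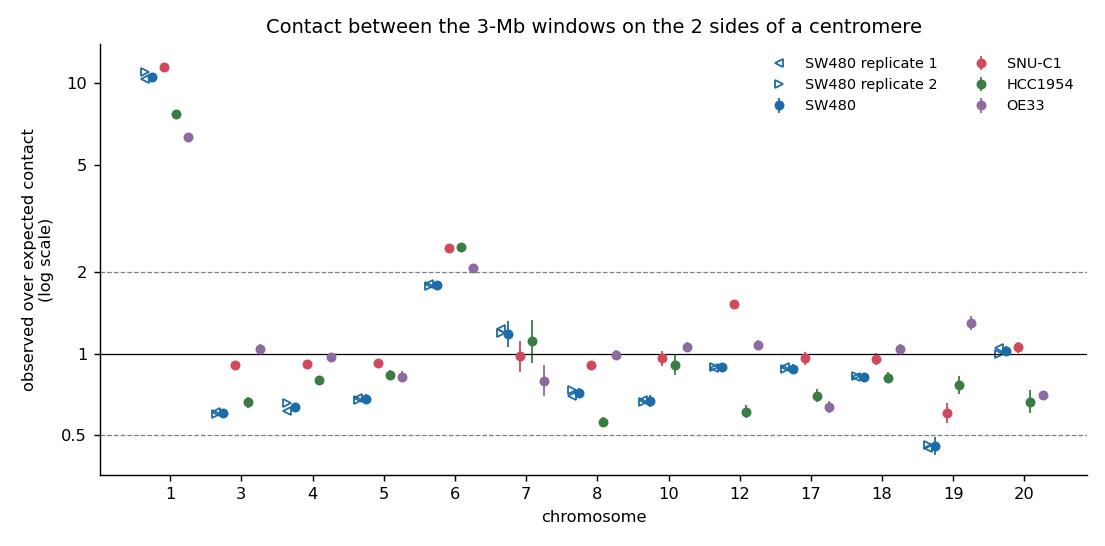
Observed over expected contact between the 3-Mb windows on the 2 sides of each centromere (log scale), for the 13 chromosomes measured; filled points are the 4 line maps with exact 95% Poisson intervals of the read pairs, open triangles the SW480 replicates, and dashed lines mark 0.5 and 2. Chromosome 1 lies between 6.31 and 11.5 and chromosome 6 between 1.80 and 2.48, above the other 11 chromosomes in all 4 lines.

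Chromosome 1 stood highest in every line. In the build its windows lie on average 25.5 Mb apart across the large heterochromatic block of 1q. They had 4398 read pairs and an O/E of 10.6 in SW480 (95% Poisson interval of the read pairs 10.3 to 10.9). Replicates 1 and 2 had 10.39 and 10.96. The O/E was 11.5 in SNU-C1 (4450 read pairs), 7.73 in HCC1954 (3769) and 6.31 in OE33 (2373). The mean contact was that of regions 2.16 Mb (SNU-C1) to 3.08 Mb (HCC1954) apart within an arm. The intervals and all others given here cover counting error only, since the amplification and the correction can add error that they leave out.

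Few bins carried the contact of chromosome 1 on the long arm, where the window has 12 usable bins. The bin at 145.08 Mb took 24.4% (SW480) to 28.0% (HCC1954) of the read pairs, and 4 bins together 74.6% (OE33) to 79.7% (HCC1954). The leading bins, which start between 144.92 and 145.08 Mb, lie over *PDE4DIP* (chr1:144836157-145076227, minus strand), which encodes a Golgi and centrosome protein, and over *SEC22B* (chr1:145096408-145118353, plus strand), a vesicle transport gene. On the short arm 51 of 51 usable bins had contact, and the highest, at 120.40 Mb in SW480 and HCC1954 and 120.48 Mb in SNU-C1 and OE33, took 7.87% to 12.52%. The latter bin lies in *NOTCH2* (chr1:120454176-120643366, minus strand), a receptor gene of the Notch pathway. Both sides are rich in duplicated genes, and reads of near-identical copies can be placed on either side. Of the 466842 different 31-base words of the usable 1q bins, 2.26% also occurred in the usable 1p bins, the third highest share of the 13 chromosomes, which ran from 0.839% (20) to 2.95% (12). In the other direction, 0.548% of the 1929611 words of the usable 1p bins occurred in the usable 1q bins. That was the lowest share of the 13 chromosomes, where the highest was 2.98% (12). The part of such reads in the contact was not tested, and neither was the place of the leading bins in the build.

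The contact of 1q with the short arm reached beyond the window. With the blocks of 1p that lie 3 to 6 Mb from the run, the 1q window had an O/E of 3.15 (SW480), 3.35 (SNU-C1), 2.19 (HCC1954) and 1.88 (OE33). The 1p window with the 1q block at 3 to 6 Mb had 0.803, 0.688, 0.25 and 0.518. Values above 1 were found for the 1q window and not for the 1p window.

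Chromosome 6 had the next highest value in all 4 lines. The O/E was 1.80 in SW480 (1.81 and 1.78 in replicates 1 and 2), SNU-C1 had 2.46, HCC1954 2.48 and OE33 2.08, from 5870, 7539, 7079 and 6039 read pairs. The short-arm bin next to the run, at 58.76 Mb, took 12.8% (SW480) to 18.6% (OE33) of them. This bin holds 11 matches to the CENP-B box and 49.6% unknown bases. Of its 18751 different reference words, of the length used for chromosome 1, 14.96% also occurred in the 6q window. This was the highest share of any window, followed by 11p with 12.1%. Whether reads of near-identical copies take part in the contact of chromosome 6 was not tested. A further group of short-arm bins at 57.36 to 57.52 Mb, which lies over the end of *PRIM2* (chr6:57179603-57513376, plus strand), a subunit gene of DNA primase, took 5.61% to 7.63% each. On the long arm no bin took over 3.51%. With every bin that has a CENP-B box match left out, an alternative added after the data were seen, the O/E was 1.87, 2.44, 2.48 and 2.15, and chromosome 1 had 10.6, 11.5, 7.81 and 6.37. With the megabase next to the run left out, chromosome 6 had 1.45, 1.94, 1.95 and 1.72, so that it no longer reached 2 in any line, and with the minimum coverage raised to 0.5 it had 1.28, 1.9605, 1.78 and 1.56.

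An O/E of 2 or more was met by 1 of 13 chromosomes in SW480 (chromosome 1), against 0.832% of window pairs inside arms. With bins usable in SW480 alone the count was 5, and with at least 20 usable bins per window, where chromosome 1 drops out, it was 0. The minimum of 10 was set after the values were seen. It was met by 2 of 13 in SNU-C1 (background 0.263%), HCC1954 (1.43%) and OE33 (3.46%), which were chromosomes 1 and 6 each time. An O/E of 0.5 or less was met by chromosome 19 in SW480 only (background 4.96%) and by none in SNU-C1 (5.25%), HCC1954 (3.19%) and OE33 (12.1%). This depends on the setting. Without the iterative correction every line had such chromosomes, and under several other settings SW480 had none.

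Chromosome 19 was the lowest in SW480 at 0.456 (0.450 and 0.461 in the replicates, 675 read pairs) and in SNU-C1 at 0.604 (519 read pairs). In HCC1954 it was 0.768 and in OE33 it was 1.30. The 95% interval of 1.22 to 1.38 in OE33 covers counting error only. The value of 1.30 lay within the 5th to 95th percentiles of window pairs inside arms in OE33, 0.358 to 1.81. Chromosome 3 (0.605) and chromosome 4 (0.637) followed in SW480. HCC1954 had its lowest values on chromosomes 8 (0.560), 12 (0.612) and 3 (0.662). OE33 had its lowest on chromosomes 17 (0.634), 20 (0.703) and 7 (0.797). In SNU-C1 the lowest after chromosome 19 were chromosomes 3 (0.910) and 8 (0.913), and the highest after chromosomes 1 and 6 was chromosome 12 (1.53), which HCC1954 had among its lowest. Of these lowest and highest values, chromosome 19 in SW480 lay below the 5th percentile of window pairs inside arms. Chromosome 12 in SNU-C1 lay just above the 95th, and chromosomes 1 and 6 lay above it in all 4 lines. The others named here lay between these percentiles. The SW480 replicates differed by at most 0.572, on chromosome 1, and by 0.0191 in the median over chromosomes. The study's methods state that the Hi-C was done in duplicate. The other lines have 1 map each here and no separate replicate maps that would show their spread.

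The windows next to the centromere touched across it more than the regions behind them. Blocks at 3 to 6 Mb from the run on both sides had a lower O/E than the windows at 0 to 3 Mb on 13 of 13 chromosomes in HCC1954, on 12 in SNU-C1 and OE33 (all but chromosome 3) and on 11 in SW480 (all but chromosomes 3 and 19). The medians of the farther blocks on these chromosomes were 0.533 in HCC1954, 0.621 in SNU-C1, 0.531 in OE33 and 0.458 in SW480. The ratio of the inner to the outer value had a median of 1.59 in SNU-C1 to 1.86 in SW480. Both values are already set against the same distance within arms. On chromosome 19 SW480 had nearly equal values, 0.456 in the windows and 0.458 in the blocks behind them. Inner and outer blocks were not compared around points inside arms, so no background share is given for these counts.

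In the median over windows, the contact of a pericentromeric window stayed near the expected with its own arm and fell below it with the other arm. Median O/E values with blocks of the own arm 6 to 9 Mb from the run were 1.13, 1.18, 1.02 and 1.05 in the order SW480, SNU-C1, HCC1954 and OE33. With the blocks of the other arm at 6 to 9 Mb they were 0.577, 0.823, 0.618 and 0.638. At every block from there out to 24 Mb the median of the own arm was above that of the other arm in all 4 lines. Single windows differed from the medians. At 6 to 9 Mb the 19p window had 0.282, 0.340, 0.535 and 0.212 with its own arm and 0.464, 0.349, 0.632 and 0.571 with the other. The 1q window had 1.25, 0.877, 1.05 and 0.898 with its own arm and 2.54, 2.46, 1.24 and 1.44 with the other.

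**Figure D2:**
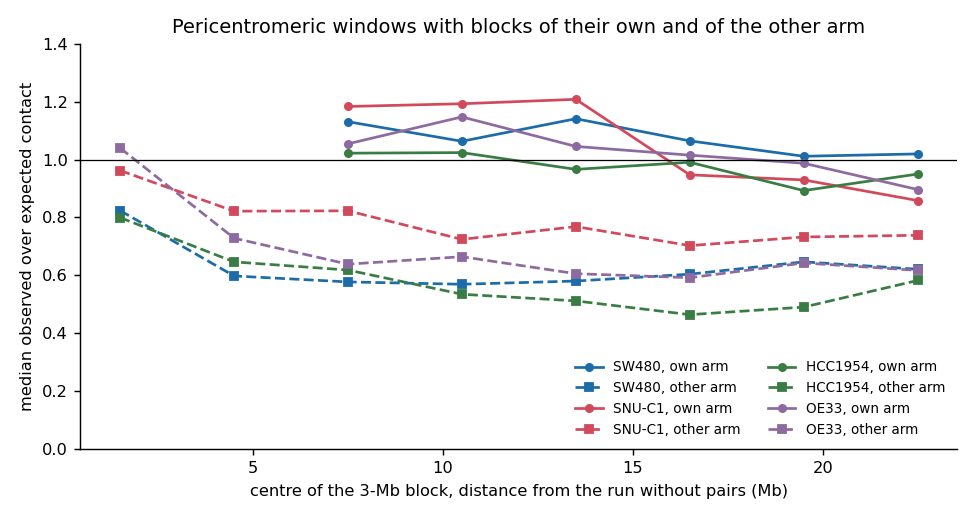
Median observed over expected contact of the pericentromeric windows with 3-Mb blocks of their own arm (circles, solid lines) and of the other arm (squares, dashed lines), by the distance of the block's centre from the run, in the 4 lines. The other-arm curves start at 0.799 to 1.04 in the facing window and lie between 0.464 and 0.823 from the next block on, below the own-arm curve of the same line.

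Within one side of the centromere, pairs of bins at least 200 kb apart in the same window had medians close to those of other 3-Mb blocks. Over 33 windows the medians of SW480, SNU-C1, HCC1954 and OE33 were 1.03, 1.03, 1.002 and 0.919, and over 832 blocks elsewhere they were 0.993, 1.001, 0.994 and 1.002. In the same order of lines, 1, 3, 3 and 5 of the windows lay below the 5th percentile of those blocks and 5, 3, 5 and 1 above the 95th, where 10% of the blocks lie outside by construction. The 1q window was the lowest in SW480 (0.637), SNU-C1 (0.404), HCC1954 (0.468) and OE33 (0.403). The 3q window was above the 95th percentile in SW480, HCC1954 and OE33. The windows 3p and 3q were above 1 in all 4 lines, as were other windows. They had 1.28 and 1.34 in SW480, 1.10 and 1.21 in SNU-C1, 1.28 and 1.4005 in HCC1954, and 1.29 and 1.37 in OE33. The 20p window reached 1.76 in HCC1954 and 1.41 in SW480, against 0.846 in OE33. The 15q window, which has 11 usable bins, ran from 0.567 in OE33 to 1.53 in SW480. The 17q window was low in OE33 (0.501) and HCC1954 (0.653) and nearer to 1 in SW480 (0.799) and SNU-C1 (0.798).

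The second comparison asked whether pericentromeres of different chromosomes met more often than other regions do. It used SNU-C1, HCC1954 and OE33, because the SW480 map holds 0.263% of its pairs between chromosomes and these lines 14.8%, 19.6% and 36.6%, pairs within a bin not counted. Here the expected value is the mean over all usable pairs of bins on different autosomes of the same map. The 33 measured windows form 515 pairs on different chromosomes. SNU-C1 had a mean O/E of 1.73 over them, HCC1954 1.75 and OE33 1.48, and the medians were 1.42, 1.30 and 1.32. Values above 1 were found for 415, 352 and 411 of the 515 pairs, while 38.8%, 35.3% and 40.8% of all pairs of 3-Mb blocks on different chromosomes were above 1.

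An O/E of 2 or more was met by 114 pairs in SNU-C1 (22.1%), where 5.59% of all 376376 pairs of 3-Mb blocks met it. In HCC1954 it was met by 109 pairs (21.2%) against 5.39%, and in OE33 by 65 (12.6%) against 2.63%. Against the mean of the same pair of chromosomes the OE33 count was 39 (7.57%), and with uncorrected read pairs it was 111 (21.6%). Without acrocentric chromosomes SNU-C1 had 54 of 393 pairs (13.7%). With only the bins within 1 Mb, 132 pairs could be measured, and 39.4% (SNU-C1), 28.0% (HCC1954) and 28.8% (OE33) met the threshold. The pairs of windows share windows, so they are not independent, and no test was made. Of the 515 pairs, 34 (6.60%) met the threshold in all 3 lines, against 1.14% of all block pairs, and 339 met it in none. Over the 515 pairs Spearman's rho between lines was 0.533 for SNU-C1 and HCC1954, 0.585 for SNU-C1 and OE33 and 0.538 for HCC1954 and OE33, and Pearson's r was 0.383, 0.486 and 0.219. These are descriptions of pairs that share windows and sequence.

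The contact fell with the distance of the other block from its centromere. The mean O/E of a pericentromeric window with blocks on other chromosomes went from 1.73 (0 to 3 Mb) to 1.42 (3 to 6 Mb) and 1.35 (6 to 9 Mb) in SNU-C1. In HCC1954 it went from 1.75 to 1.48 and 1.49, and in OE33 from 1.48 to 1.27 and 1.21. The medians fell over the same blocks in all 3 lines and were between 0.856 and 0.964 at 36 to 39 Mb. In HCC1954 the mean was 1.46 again at 30 to 33 Mb, where the median was 0.978.

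**Figure D3:**
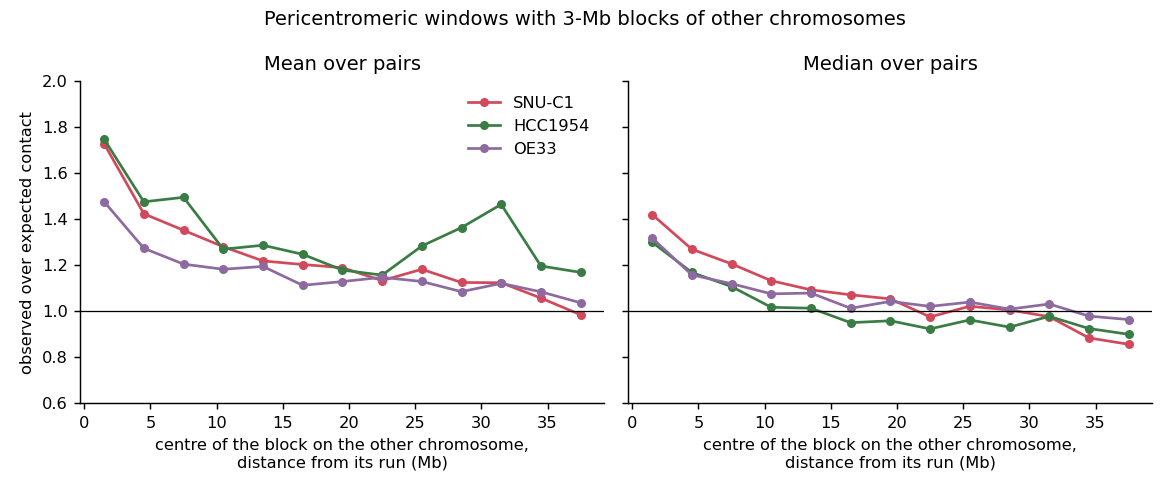
Mean (left) and median (right) observed over expected contact of the pericentromeric windows with 3-Mb blocks of other chromosomes, by the distance of the block's centre from the run of its chromosome, in SNU-C1, HCC1954 and OE33. Each line starts at its highest value in the innermost block, at medians of 1.30 to 1.42, and the medians pass below 1 further out.

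The pairs shared by the 3 lines were concentrated on a few chromosomes. Among the 8 measured windows of chromosomes 13, 17, 18, 20 and 22, a set picked after the values were seen, 23 of the 25 pairs had an O/E of 2 or more in all 3 lines. They were 23 of the 34 shared pairs. The O/E of these 25 pairs ran from 1.73 to 6.25 in SNU-C1 (median 3.61), from 2.08 to 5.45 in HCC1954 (median 3.19) and from 1.99 to 3.42 in OE33 (median 2.62). The other 490 pairs had medians of 1.398, 1.26 and 1.28. Blocks of the same chromosomes outside the windows had medians of 1.59, 1.18 and 1.17 over 4096 pairs, which are lower than the medians of the windows. Of these block pairs 33.0%, 18.99% and 12.7% had an O/E of 2 or more, and 9.08% had it in all 3 lines, so these chromosomes lie above the background outside the windows too. Against the mean of the same pair of chromosomes, the medians of the 25 pairs were 2.06, 2.09 and 1.93, and those of the other pairs 1.43, 1.25 and 1.23. By that measure 14, 14 and 11 of the 25 pairs reached 2, where 23, 25 and 24 did by the mean of all autosomes.

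Single pairs of this group show the size. The 13q window, in which the gene nearest to the run is *TUBA3C*, a tubulin gene, and the 22q window, in which it is *CCT8L2*, had an O/E of 6.25 in SNU-C1 (203 read pairs), 3.19 in HCC1954 (57) and 2.13 in OE33 (137). The 20q and 22q windows had 5.47, 4.06 and 3.13 from 143, 78 and 479 read pairs. The 18p and 22q windows had 3.81, 5.45 and 2.12 from 46, 75 and 89 read pairs.

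Acrocentric chromosomes, whose short arms carry the ribosomal gene clusters of the nucleolus, had high values in SNU-C1 above all. The 6 pairs of acrocentric windows (13q, 14q, 15q and 22q) had means of 3.75 (SNU-C1), 2.63 (HCC1954) and 1.81 (OE33). Pairs with 1 acrocentric window had means of 2.21, 1.79 and 1.82, and pairs with none had 1.56, 1.72 and 1.37. In OE33 the medians of these 3 classes were 1.86, 1.60 and 1.25. By window, the highest mean over its pairs in SNU-C1 was that of 13q (2.96), whose coverage there was 2.20-fold that of the other lines' median, then 6p (2.62) and 22q (2.43). In HCC1954 it was 8p (3.56), 12p (2.97) and 6p (2.42), and in OE33 14q (2.35), 18q (2.06) and 20p (1.95). Some of these means rest on 1 pair. Without 8p with 12p the means of HCC1954 were 1.77 (8p) and 1.15 (12p), and without 3p with 6p that of 6p was 1.70 in SNU-C1 and 1.72 in HCC1954. In OE33 the mean of 18q was 1.69 without 14q with 18q. That of 14q was 2.00 without 14q with 18p, its equally high pair with 18q still included. The lowest means were 1.12 (7q), 1.14 (6q) and 1.16 (4p) in SNU-C1, 0.904 (3q), 1.01 (10p) and 1.06 (7q) in HCC1954, and 0.942 (3q), 1.07 (6q) and 1.10 (4q) in OE33. The copies of a region per cell and its coverage in these maps cannot be told apart, and the correction by iteration divides coverage out bin by bin.

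**Figure D4:**
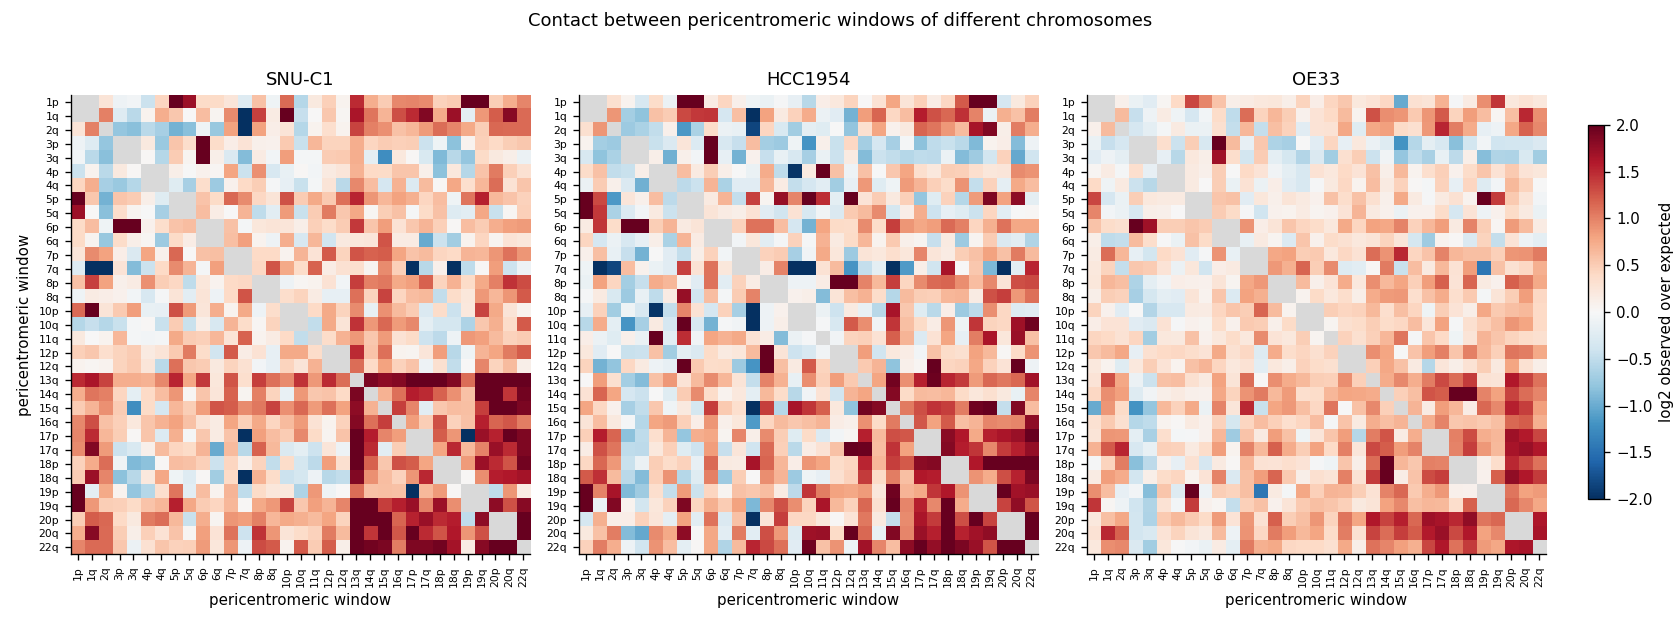
Contact between the 33 pericentromeric windows of different chromosomes as log2 observed over expected, in SNU-C1, HCC1954 and OE33; red is above and blue below the mean between chromosomes, values are shown up to 2 and down to -2, and pairs on the same chromosome are grey. The red corner at the lower right holds chromosomes 13 to 22, single dark squares mark 3p with 6p in all 3 lines, 8p with 12p in HCC1954 and 14q with 18p and 18q in OE33.

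The highest pair of SNU-C1, and among the 3 highest in the other lines, was 3p with 6p. Its O/E was 30.3 in SNU-C1 (1582 read pairs, 28.8 to 31.9), 23.5 in HCC1954 (918 read pairs, 21.99 to 25.05) and 9.03 in OE33 (677 read pairs, 8.37 to 9.74). The 3q window with 6p had 9.83, 4.504 and 3.23. On the 6p side 4 bins from 57.36 to 57.52 Mb, over and beyond the end of *PRIM2*, took 75.0%, 77.5% and 67.1% of the read pairs with 3p, while on the 3p side no bin of 67 took over 4.47%. Of all read pairs of these 4 bins with other chromosomes, 51.9% (SNU-C1), 37.1% (HCC1954) and 22.6% (OE33) went to chromosome 3, which holds 7.40% of the listed bins of the other chromosomes. Of these, 32.9%, 30.0% and 17.7% ended in the windows of chromosome 3, which are 3.08% of its bins.

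By shared reference words chromosome 3 did not stand out, but such words cannot show copies that the build lacks. Of the 158691 different 31-base words of the 4 bins, 3.999% occurred in the 3p window and 4.03% in the 3q window, which ranked 22 and 20 of the 39 windows, and the highest share was 4.58% (4q). Within their own chromosome the 4 bins had 15803, 14833 and 14289 read pairs in SNU-C1, HCC1954 and OE33. Whether reads of near-identical copies take part in this contact was not tested.

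The windows of chromosomes 1, 5 and 19, whose sequences are shown above, formed another shared group. The 1p window with 19q had an O/E of 8.68 in SNU-C1 (848 read pairs), 8.89 in HCC1954 (1717) and 2.69 in OE33 (1081). With 19p it had 9.98, 7.71 and 1.90, and with 5p 5.96, 6.14 and 2.53. The bin next to the run, at 121.48 Mb, took nearly all of it on the 1p side, with 96.0%, 98.4% and 95.6% of the read pairs with 19q and 97.2%, 90.9% and 91.4% of those with 5p. In the build 86.4% of this bin is unknown bases, and it holds 7 matches to the CENP-B box. On the 19q side 62 of 62 usable bins had contact and none took over 5.19%.

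The destinations of that single bin were uneven over the genome. In SNU-C1, HCC1954 and OE33 the whole maps hold 14.8%, 19.6% and 36.6% of their read pairs between chromosomes. In the same order this bin had 19756, 30862 and 44502 read pairs with other autosomes and 6299, 8019 and 9375 within its own chromosome. Chromosome 19 took 26.5% (SNU-C1), 28.3% (HCC1954) and 12.4% (OE33) of its read pairs between chromosomes, and chromosome 5 took 19.2%, 17.8% and 17.01%, while they hold 2.16% and 6.82% of the listed bins of the other chromosomes. The next chromosome took 5.99% (chromosome 10, SNU-C1), 6.63% (chromosome 8, HCC1954) and 7.35% (chromosome 7, OE33). Of the 4450 different 31-base words of the bin, 7.37% occurred in the 19q window, the most of any window outside 1p, followed by 11p with 5.06%, while 5p had 1.48%. Without this bin and the 4 bins of 6p, an alternative added after the data were seen, 109, 108 and 65 window pairs had an O/E of 2 or more, of which 109, 107 and 63 had it with all bins. Without all bins that have a CENP-B box match, 108, 108 and 65 did. Whether reads of near-identical copies take part in the contacts of the 1p bin was not tested.

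The other highest pairs belonged to 1 line. HCC1954 had an O/E of 57.5 for 8p with 12p (3144 read pairs, 55.5 to 59.6), where SNU-C1 had 1.22 and OE33 1.67, and 8.65 for 8p with 12q, where they had 0.968 and 1.15. The contact covered 66 of 66 usable bins of 8p and 42 of the 58 of 12p, and no bin pair held over 0.573% of it. It was not centred on the centromeres. Among 2112 block pairs of chromosomes 8 and 12 the highest, 61.6, joined the 8p window with 12q at 3 to 6 Mb from the run. The 8p window holds, among others, *POTEA*, its gene nearest to the run, *ANK1*, a membrane skeleton gene, and *IKBKB*, a kinase gene of the NF-kappa-B pathway. In HCC1954 its coverage was 2.24-fold the level of the other 3 lines by their median, and at 3 to 6 Mb on 12q it was 1.88 higher on the log2 scale.

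OE33 had an O/E of 13.3 for 14q with both 18p (409 read pairs, 12.1 to 14.7) and 18q (1086 read pairs, 12.48 to 14.1), where SNU-C1 had 2.27 and 1.89 and HCC1954 1.58 and 1.31. All 44 usable bins of 14q had contact with 18q, and 42 of them with 18p, and no bin pair held over 0.734%. These were the highest of the 750 block pairs of chromosomes 14 and 18 in OE33, followed by 10.7 for the 14q window with 18p at 12 to 15 Mb from its run. Next was 10.5 for 14q at 6 to 9 Mb with 18p at 9 to 12 Mb (613 read pairs), so the contact was not confined to the windows. The 14q window is rich in olfactory receptor and ribonuclease genes, and the 18q window holds *GATA6*, a transcription factor gene of the gut epithelium.

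By the rule for 1 line (an O/E no lower than 4 that also exceeds the higher of the other 2 lines by 4-fold or more, with 0.5 added to each), 2 pairs were specific to HCC1954 (8p with 12p and 12q) against a background of 0.382%, 2 to OE33 (14q with 18p and 18q) against 0.0526%, and 1 to SNU-C1 against 0.139%. The last was 1q with 10p at 7.24, from 69 read pairs (5.64 to 9.17) and 12 usable bins of 1q, where HCC1954 had 1.37 and OE33 1.06. Their shares of the 515 pairs were 0.388%, 0.388% and 0.194%, at or near the background in HCC1954 and SNU-C1.

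At the low end were pairs with the 7q window, which has 12 usable bins. In SNU-C1 4 of them and in HCC1954 5 of them, 1q with 7q in both, had 0 read pairs, which at this depth cannot be told apart from a low contact. The lowest of OE33 were 7q with 19p at 0.367 (2 read pairs), 3p with 15q at 0.436 (5) and 1p with 15q at 0.499 (15).

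The third comparison asked where coverage changes between the arms. A step is the log2 ratio of the median coverage of the long-arm window to that of the short-arm window, minus the median of the same ratio in the other 3 lines, which takes out mappability and base composition that all lines share. It was called at 0.4 or more in size. In a Hi-C map, coverage follows the copies of a region, but how many cells carry a change and how many copies each has cannot be told apart. Of 13 chromosomes, 3 were called in SW480, where 7.62% of 748 positions inside arms were. SNU-C1 had 3 (background 13.5%), HCC1954 4 (23.1%) and OE33 4 (12.4%). These are 23.1%, 23.1%, 30.8% and 30.8% of the chromosomes, on small numbers. More steps were called in SW480, SNU-C1 and HCC1954 when undivided by the other lines, and in SNU-C1 with pairs between chromosomes included. The SW480 replicates differed by at most 0.0622 in a step. The same difference taken between the blocks at 3 to 6 Mb, which was added after the values were seen, was past the threshold in the same direction for 9 of the 14 called steps and under it for 5, which were those of chromosome 1 (0.28) and 8 (-0.32) for HCC1954 and of chromosomes 8 (0.32), 17 (0.31) and 18 (0.01) for OE33.

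**Figure D5:**
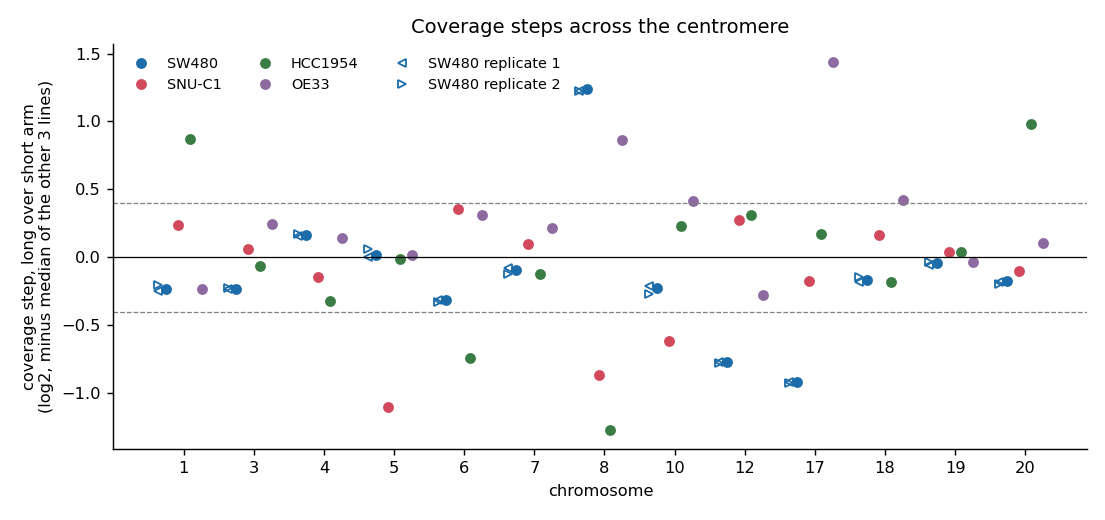
Coverage step from the short-arm to the long-arm window of each chromosome (log2, minus the median of the other 3 lines), with the 4 lines as filled points, the SW480 replicates as open triangles and dashed lines at 0.4 and -0.4. Chromosomes 8, 10 and 17 have called steps in both directions, and chromosomes 3, 4, 7 and 19 have none past the dashed lines in any line.

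Chromosome 8 split the lines. The relative coverage of the 8p window was 2.15 in SNU-C1 and 2.21 in HCC1954, against 0.887 in SW480 and 0.987 in OE33, and that of 8q was 1.05, 0.816, 1.02 and 0.880. The undivided log2 ratio of long to short arm was -1.03 in SNU-C1 and -1.44 in HCC1954 but 0.21 in SW480 and -0.16 in OE33. Since the other lines were split as well, the divided steps came out as -0.87, -1.27, 1.24 and 0.87. On 8p the excess ended at different places. In HCC1954 it was 1.17 in the window and -0.05 in the next 3 Mb, whereas in SNU-C1 it was 1.12, 1.44 and 1.72 over the first 9 Mb and -0.30 at 9 to 12 Mb. With windows of 10 Mb in place of 3 Mb the step of HCC1954 was 0.10 and that of OE33 -0.10.

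Chromosome 17 had the largest step, 1.43 in OE33, where 17q lay at a relative coverage of 2.57 and 17p at 0.526. The 17q window, in which the gene nearest to the run is *WSB1*, a ubiquitin ligase gene, was 1.44 higher on the log2 scale than in the other lines, and blocks farther out on 17q reached 2.24 at 9 to 12 Mb. In SW480 the step was -0.92 (-0.92 in both replicates), and there the 17p window was at 0.876 and 17q at 0.944. The undivided ratio in SW480 was 0.11, so the negative step stands against a rise from 17p to 17q of 0.85 to 2.29 in the other 3 lines.

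SNU-C1 had a step of -1.11 on chromosome 5, from 1.20 in the 5p window to 0.625 in 5q. The steps of the other 3 lines lay between -0.01 and 0.02 there. Relative to the other lines 5q was at -0.66 in the window, at -0.36 in the block at 12 to 15 Mb and between these in the other blocks out to 18 Mb. SNU-C1 also had -0.62 on chromosome 10, where OE33 had 0.41 (0.40 with SW480 replicate 1 in place of the pooled map, just under the threshold). The 10q window of OE33 was 1.30 above the others and its 10p window 0.50.

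HCC1954 had 0.87 on chromosome 1, 0.98 on chromosome 20 and -0.74 on chromosome 6. On chromosome 20 both windows were below the other lines, 20p at -2.03 and 20q at -0.98 on the log2 scale. The 20p window was at 0.349 of the median, on 25 usable bins. On chromosome 1 the 1q window, at 1.89, had 12 usable bins, and the next 3-Mb block of 1q was 0.87 above the other lines, while that of 1p was 0.59 above them, so that the difference between the arms there was 0.28. On chromosome 6 the 6p window was at 1.90 and 6q at 0.784. SW480 had -0.77 on chromosome 12 (-0.77 with replicate 1 and -0.78 with replicate 2), with 12p at 1.43 and 12q at 0.854, and OE33 had 0.42 on chromosome 18 (18p 0.507, 18q 0.926), which with windows of 10 Mb was -0.13.

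Windows of acrocentric chromosomes and unpaired windows have a level and no step. Chromosomes 3, 4, 7 and 19 had no called step in any line, and chromosome 19 had the smallest, between -0.04 and 0.04, while its contact across the centromere ran from 0.456 to 1.30.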

How the data were processed

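Chromatin contacts were measured by in situ Hi-C with MboI in 4 cancer cell lines, in 6 maps of 40-kb bins. Per the submitters' processing notes and the study's methods, reads were aligned to hg19 with BWA, PCR duplicates were taken out with Picard, and the authors deposited the contact signal of each pair of bins after iterative correction. Here the correction factors of the bins were estimated by a fit toward whole numbers of read pairs and divided out. After this 99.9% of the tested SW480 values, those up to 20 read pairs, were whole numbers (tolerance 0.02). Whole numbers were the aim of the fit, so this share is no separate check of the read pairs. The maps of SW480, SNU-C1, HCC1954 and OE33 hold 133325340, 115014329, 93501178 and 89418425 read pairs within chromosomes. Exact Poisson intervals (95%) of these read pairs cover counting error only. No column of per-sample values was left unused.

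The members and lists were chosen with earlier results of these data known. The minimum of 10 usable bins, the set of chromosomes 13, 17, 18, 20 and 22, the single bins described and 7 alternatives were chosen after values were seen. Named were the 3 highest and the 3 lowest chromosomes, windows or pairs of each result and line and all past a threshold where these were 10 or fewer, genes as landmarks only. Bins usable in all lines reached 0.25 of the median coverage. Pairs within one side were at least 200 kb apart. SW480 was left out between chromosomes. The alternatives were other windows, coverage minimums, expected values, summaries and chromosomes, uncorrected read pairs, undivided steps and each SW480 replicate alone. No test between lines was made, since 3 lines have 1 map. The scripts, in Python 3.11.15 with numpy 2.4.6, pandas 2.3.3 and scipy 1.17.1, were tested on simulated data. Sequences and gene positions are from GRCh37.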

Additional observations from a re-analysis of the deposited data

Results flagged for a closer look

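The coverage step between the arms of chromosome 8 ran one way in SW480, at 1.24, and the other way in SNU-C1, at -0.87, and HCC1954, at -1.27, and the difference was not tested, since 3 of the lines have 1 map each. The step of chromosome 17 was -0.92 in SW480 and 1.43 in OE33, and this difference was not tested either. In both cases the steps are relative to the median of the other 3 lines, and the undivided ratio of SW480 was 0.21 on chromosome 8 and 0.11 on chromosome 17.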

How the results depend on the processing

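Values are given in the order SW480, SNU-C1, HCC1954 and OE33 where 4 stand together, and SNU-C1, HCC1954 and OE33 where 3 do. Values not named here moved by less than the spread used as the limit, or by less than 1.5 times for counts. With 20 usable bins per window the median O/E across the centromere was 0.719, 0.957 and 0.768 in the first 3 lines, chromosome 1 could not be measured and 0, 1, 1 and 1 chromosomes reached 2, and the mean between pericentromeres was 1.78 in HCC1954. With bins at 1 to 3 Mb the medians across were 0.721, 0.913, 0.736 and 0.922, 1 chromosome reached 2 in SNU-C1, HCC1954 and OE33, 0 in SW480 and 1 in OE33 were at 0.5 or less, the medians within one side were 1.01 and 0.943 in SW480 and SNU-C1, and the means between were 1.58, 1.53 and 1.42. With bins usable in the line alone the medians across were 0.850, 0.957 and 1.05 in SW480, SNU-C1 and OE33, and in SW480 5 chromosomes reached 2 and 0 were at 0.5 or less. Within 1 Mb, 4 chromosomes could be measured, with medians of 0.584, 0.890, 0.811 and 1.18, 0 chromosomes at 2 or more in any line and 0 at 0.5 or less in SW480, and between chromosomes the means were 1.81, 4.40 and 1.61 and the medians 1.69, 1.18 and 1.47, with 39.4% and 28.8% of pairs at 2 or more in SNU-C1 and OE33. Against arms of the same chromosome the medians across were 0.834, 0.918, 0.837 and 0.982, with 0 chromosomes at 0.5 or less in SW480. The mean of single O/E values gave 0.948, 0.773 and 1.02 in SNU-C1, HCC1954 and OE33, and 1 chromosome at 2 or more in OE33. At a minimum coverage of 0.5 the medians across were 0.739, 1.06, 0.829 and 1.06, 1 chromosome reached 2 in SNU-C1, HCC1954 and OE33, 0 were at 0.5 or less in SW480, the medians within one side were 1.04, 1.02 and 0.951 in SW480, HCC1954 and OE33, the means between were 1.62 and 1.46 in SNU-C1 and OE33, and 2 steps were called in OE33. Without the iterative correction the medians across were 0.745, 0.817, 0.736 and 0.907, with 2, 1, 4 and 1 chromosomes at 0.5 or less, the medians within one side were 0.926, 0.780, 0.815 and 0.840, the means between rose to 1.85, 1.85 and 1.67 while the medians of window pairs fell to 1.19, 1.06 and 1.24, and 21.6% of pairs reached 2 in OE33. The mean between pericentromeres was 1.64, 1.62 and 1.36 against the same pair of chromosomes (7.57% of pairs at 2 or more in OE33), 1.56, 1.72 and 1.37 without acrocentric chromosomes (13.7% in SNU-C1), 1.63, 1.67 and 1.45 without the bin of 1p and 4 bins of 6p, and 1.68 and 1.71 in SNU-C1 and HCC1954 without bins that hold a CENP-B box, while the median of window pairs with all bins was 1.42, 1.30 and 1.32. Undivided by the other lines, 5, 9 and 8 coverage steps were called in SW480, SNU-C1 and HCC1954, and with pairs within and between chromosomes 6 were called in SNU-C1.

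The direction reversed for 5 values. Undivided, the step of chromosome 17 in SW480 was 0.11 and that of chromosome 8 in OE33 -0.16, and with 10-Mb windows chromosome 8 had 0.10 in HCC1954 and -0.10 in OE33 and chromosome 18 had -0.13 in OE33. With SW480 replicate 1 or 2 alone, the median across was 0.818 to 0.825, the median within one side 1.03 to 1.04 and 3 steps were called. The cause was not tested for any of these, beyond what each setting's own construction gives. No paired analysis was possible because the labels number replicates in SW480 only, so no groups share 2 numbers, and no test was made. Few read pairs limit the pairs with 7q, 1q and 15q.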
